A study of Mus musculus with 11 samples.

Results

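Hba-a1 and Hbb-b1, the genes of an alpha and a beta globin chain, lie on different chromosomes and in unlike neighbourhoods, and both are counted as silent in T cells. Their surroundings were taken as 2 fixed windows on mm9: chromosome 11 from 31900001 to 32500000 around Hba-a1 (near 32.18 Mb), and chromosome 7 from 110700001 to 111200000 around Hbb-b1 (near 110.96 Mb). The windows were set by position, with earlier results of these data known. Both could be followed in all 11 maps of the series and in the authors' pooled file. Consecutive windows of the same lengths on the autosomes, 3958 of 600 kb and 4740 of 500 kb with at least 20 fragment ends each, served as reference.

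The maps come from Hi-C, in which DNA ends close together in the nucleus are joined and read as a pair, on Th1 cells, a kind of CD4-positive helper T cell. Per the labels, the cells came from spleens of male C57BL/6 mice, were stimulated with anti-CD3, purified by CD4 and grown with IL-2. The groups were 9 single cells and 1 ensemble, a population map, cut with Bgl II, and 1 single cell (cell 8) cut with Dpn II; the pool joins single cells, all contacts of the 9 Bgl II cells among them. The labels tie the cells to no particular animal or culture, so p-values measure only the spread between these cells, which may be technical. Contact maps hold no expression, so neither the cell type nor the silence of the genes was checked.

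Globin genes are transcribed at very high level in red cell precursors and hardly anywhere else. The alpha globin genes sit among genes that most cells use, and their main enhancers lie within introns of the neighbouring gene Nprl3, whose product acts in nutrient signalling. The beta globin genes, with an upstream group of enhancers called the locus control region, lie inside a long array of olfactory receptor genes, which are active in sensory neurons of the nose and off in most other cells. In C57BL/6, the strain of these mice, the adult beta genes at this place carry the names Hbb-bs and Hbb-bt, so Hbb-b1 here stands for the position of the adult beta genes.

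Gene order was taken from RefSeq's table for GRCm38.p6, used for names alone, since its build differs from that of the files. Beside the alpha globin cluster it listed Nprl3, Mpg (a DNA repair glycosylase), Rhbdf1 (an inactive rhomboid protease), Snrnp25 (a protein of the minor spliceosome), Il9r (the receptor of interleukin 9) and Nsg2 on 1 side. On the other side came Sh3pxd2b, Ubtd2, Efcab9, Stk10 (a kinase of lymphocytes), Fbxw11 (a subunit of a ubiquitin ligase) and Smim23. Of these 12 nearest coding neighbours of the alpha cluster, 0 had an olfactory receptor symbol. Around the beta cluster the 12 nearest were all olfactory receptor genes, from Olfr67 to Olfr628 on 1 side and from Olfr66 to Olfr633 on the other.

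The promoters of the globin genes are shown for the short motifs they hold and for the sites of the enzymes of the study. RefSeq's promoter table (GRCm38.p6) matched Hba-a1. It was read for Hbb-bs, the neighbouring adult beta gene of the same cluster, in place of Hbb-b1, a choice made after the tables were seen. Shown are the 250 bases before the start site, in the direction of the gene (plus strand for Hba-a1, minus for Hbb-bs), with matches to the motifs named next in capitals.
Hba-a1: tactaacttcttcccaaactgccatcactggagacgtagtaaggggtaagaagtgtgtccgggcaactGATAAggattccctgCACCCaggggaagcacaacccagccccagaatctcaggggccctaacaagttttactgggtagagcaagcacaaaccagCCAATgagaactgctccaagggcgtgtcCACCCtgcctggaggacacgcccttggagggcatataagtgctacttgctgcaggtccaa
Hbb-bs: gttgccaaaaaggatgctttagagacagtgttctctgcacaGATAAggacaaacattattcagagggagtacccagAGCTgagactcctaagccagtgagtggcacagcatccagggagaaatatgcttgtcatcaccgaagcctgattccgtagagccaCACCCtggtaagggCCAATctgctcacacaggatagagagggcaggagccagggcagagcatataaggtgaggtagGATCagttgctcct

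Both strands were searched. CCAAT, found in 33.8% of 32851 promoters of this table, occurred 1 time in each of the 2 sequences. CACCC (52.0% of promoters) occurred 2 times in Hba-a1 and 1 time in Hbb-bs, and GATAA (22.6%), which holds the core letters bound by GATA factors, 1 time in each. TATAAA (12.4%) was in neither, but both hold the near form TATAAG close to the start site, which an exact search passes over. The Bgl II site AGATCT (6.37% of promoters) was in neither. The Dpn II site GATC (41.9%), which lies within AGATCT, and the Alu I site AGCT (70.4%), cut when libraries were made, occurred 1 time each in Hbb-bs and 0 times in Hba-a1. The counts differ in Hbb-bt, the other adult beta gene. It held TATAAA 1 time, CCAAT 3 times, CACCC 3 times, GATAA 1 time, AGCT 2 times and GATC 0 times. The promoter stretches of Hba-a1 and its copy Hba-a2 share an unbroken run of 297 of 300 bases, while those of Hbb-bs and Hbb-bt share at most 14. How reads from such copies were placed is not given in the sources used here.

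Contact ends were counted in each window, an end being 1 side of a contact, on 364 fragment ends (distinct positions seen in the ensemble) around Hba-a1 and 224 around Hbb-b1. The ensemble held 51834382 contacts, with 44181 ends in the alpha window and 10807 in the beta window. The pool held 2294791 contacts, with 1459 and 709 ends. The 9 Bgl II cells, with 11156 to 30665 contacts each, gave 97 ends in the alpha window (lowest 3, median 12, highest 17 per cell) and 53 in the beta window (3, 5 and 12). Cell 8 gave 9 and 5. A single cell thus shows each globin window through a handful of contacts, and shares below are set by counts of that size. Files list each contact once, with no read number, and Wilson intervals given below cover counting error alone.

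Per fragment end, and relative to its own chromosome, the alpha window was dense in contacts in the ensemble and the beta window sparse. The value was 1.25 for alpha, where 76.3% of autosomal windows were lower, and 0.573 for beta, where 19.0% were lower. In steps of 50 kb it ran from 0.939 to 1.41 across the alpha window and from 0.418 to 0.688 across the beta window, with no overlap. The pool narrowed this to 1.13 and 0.965, and in the 9 Bgl II cells the windows could not be told apart, at 0.997 ± 0.277 and 1.06 ± 0.444 (SD, n = 9; exact sign-flip permutation test, two-sided, p = 0.895, adjusted over 10 tests 0.961). Among cells, alpha ran from 0.470 in cell 9 to 1.45 in cell 10, and beta from 0.581 in cell 2 to 1.98 in cell 9. Alpha was higher in 6 of 9 cells, and without cell 9 the mean difference turned from -0.0587 to 0.123.

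Chromosomes of mammals fold into 2 kinds of large compartment, 1 rich in active genes and 1 mostly silent. Here bins of 1 Mb were split by a first eigenvector computed on ensemble contacts within each chromosome, with class 1 the sign richer in Bgl II fragment ends. No mm9 annotation was used, so the classes have numbers and no names. Hba-a1 fell in class 1 and Hbb-b1 in class 2. The 1 Mb bin of Hba-a1 had a value of 0.148, rank 51 from the top of 119 bins on chromosome 11, of which 44.5% were class 1. That of Hbb-b1 had -1.17, rank 106 of 129 on chromosome 7, of which 34.1% were class 1. The pool gave 0.477 and -0.759, the same classes.

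At 1 Mb the bin of Hba-a1 was the only class 1 bin of its run, with class 2 on both sides. Bins of 250 kb, chosen after this was seen, resolved it into a short class 1 stretch of 1000 kb, from 31750001 to 32750000, with 4 bins between 0.136 and 0.670. The 3 bins that touch the alpha window were all in it, between 0.482 and 0.670. On its left lay 8250 kb of class 2, with values down to -1.15, and on its right 1000 kb of class 2 and then another class 1 stretch of 1000 kb, from 33750001 to 34750000 (up to 0.777). Of 19 class 1 runs on chromosome 11 (median 1500 kb) 5 were shorter than the one with Hba-a1.

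Hbb-b1 lay well inside a class 2 run of 3000 kb, from 109750001 to 112750000, at values from -0.918 to -0.308. This was longer than 40 of the 48 class 2 runs of chromosome 7 (median 750 kb). It began where a class 1 run of 5500 kb with values up to 1.64 ended. The bins of the genome most like each gene's bin, over 10 Mb away on the same chromosome, followed the classes. For Hba-a1 they started at 20000001, 49000001 and 58000001 (Pearson r = 0.798, 0.756 and 0.696 over 119 bins), all in class 1, with the middle one at 0.00203 on the border. For Hbb-b1 they started at 98000001, 124000001 and 99000001 (r = 0.825, 0.823 and 0.811 over 129 bins), all in class 2 at -1.15 or lower. These correlations come from the matrix that gave the classes and are a description.

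**Figure D1:**
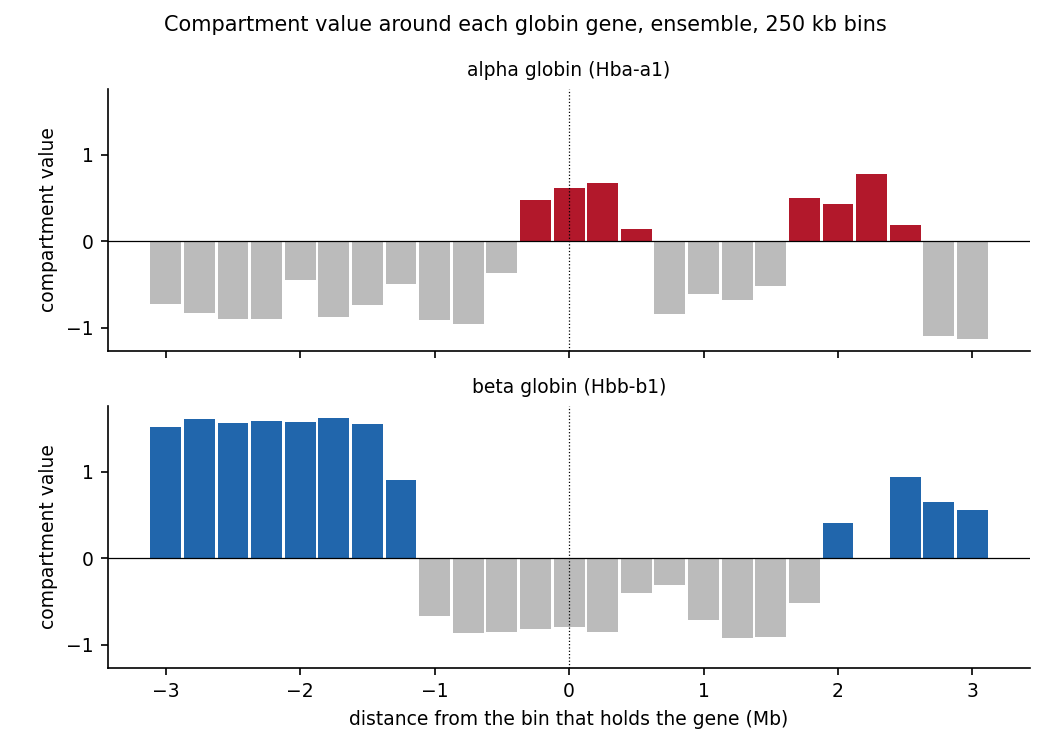
Compartment value (y axis, eigenvector with unit variance scale) in 250 kb bins of the ensemble against distance in Mb from the bin of each gene, coloured in class 1 and grey in class 2. Hba-a1 (top) sits in a stretch of 4 coloured bins with grey bins on both sides and a second coloured stretch on its right, while Hbb-b1 (bottom) sits in 12 grey bins, right of a tall class 1 block.

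Partners on other chromosomes (trans partners) were not used to set the classes, as each eigenvector was fitted within 1 chromosome, although the partner's own class comes from the ensemble. With the 9 Bgl II cells taken out of the pool, 207 of 268 trans partners of the alpha window lay in class 1 (77.2%, 95% Wilson interval 71.9 to 81.9), against 56.7% for the rest of chromosome 11. For the beta window it was 30 of 105 (28.6%, 20.8 to 37.8), against 49.6% for the rest of chromosome 7. The ensemble gave the same order with a smaller gap, 60.1% (59.4 to 60.8) for alpha and 47.9% (46.5 to 49.2) for beta, against 58.6% and 54.3% for the rest of their chromosomes.

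Against all autosomal windows with at least 50 classed trans partners, a comparison added after these shares were seen, the alpha window resembled class 1 windows and the beta window class 2 windows. In the pool without the 9 cells, class 1 windows of 600 kb had a median of 63.3% (10th to 90th percentile 43.5 to 79.6) and class 2 windows 30.7% (22.6 to 47.0). The alpha window was above 84.9% of 1457 class 1 windows and above 100% of 2466 class 2 windows. The beta window was above 1.03% of 1743 class 1 windows and 40.6% of 2955 class 2 windows of 500 kb. In the ensemble these shares were 57.7% and 99.96% for alpha and 3.20% and 67.4% for beta.

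**Figure D2:**
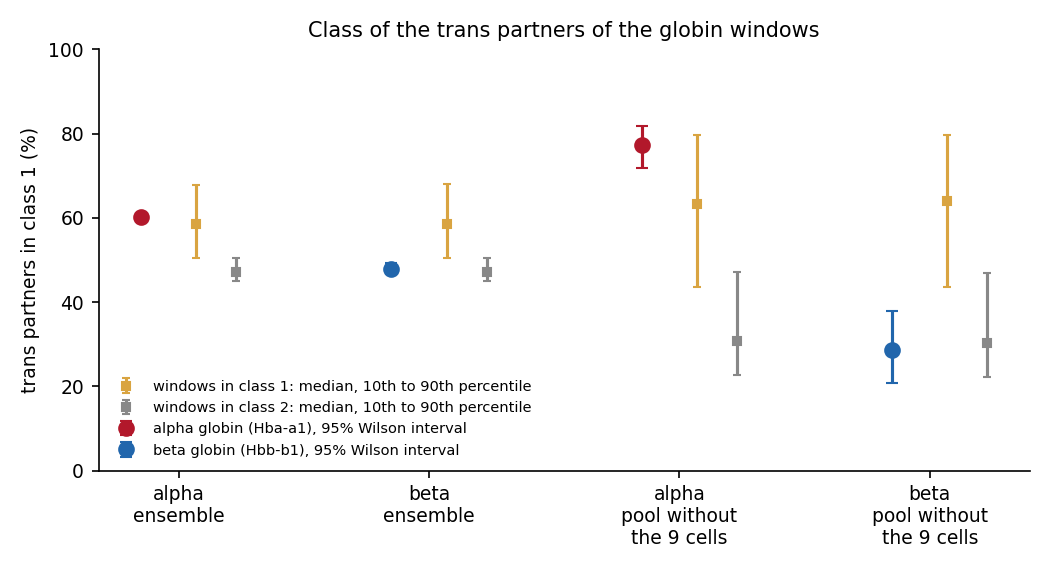
Percent of trans partners in class 1 (y axis) for each globin window (circles, with 95% Wilson intervals) beside all windows of the same length in class 1 and in class 2 (squares, median with 10th to 90th percentile), in the ensemble and in the pool less the 9 Bgl II cells. The alpha circles lie within the range of class 1 windows at 60.1% and 77.2%, and the beta circles within that of class 2 windows at 47.9% and 28.6%.

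Contacts on the same chromosome showed the same split at both distance ranges. Observed contacts were divided by those expected from distance and the totals of the bins. In the pool, the alpha window met class 1 bins 1 to 10 Mb away at 1.69 times the expected number (63 contacts on 37.3) and class 2 bins at 0.527 times (106 on 201). Beyond 10 Mb the ratios were 1.45 and 0.611. The beta window met class 1 bins at 0.334 times (28 on 83.9) and class 2 bins at 1.52 times (109 on 71.9) between 1 and 10 Mb, and at 0.380 and 1.11 times beyond. Trans ratios in the pool were 1.56 and 0.477 for alpha and 0.603 and 1.39 for beta. The ensemble had the same side of 1 for each of these 12 ratios, from 0.456 (beta with class 1, 1 to 10 Mb) to 1.32 (alpha with class 1, 1 to 10 Mb). It was nearer to 1 than the pool except for beta with class 2 beyond 10 Mb (1.21 against 1.11). For cis contacts of the ensemble this is no separate evidence, since they set the classes.

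**Figure D3:**
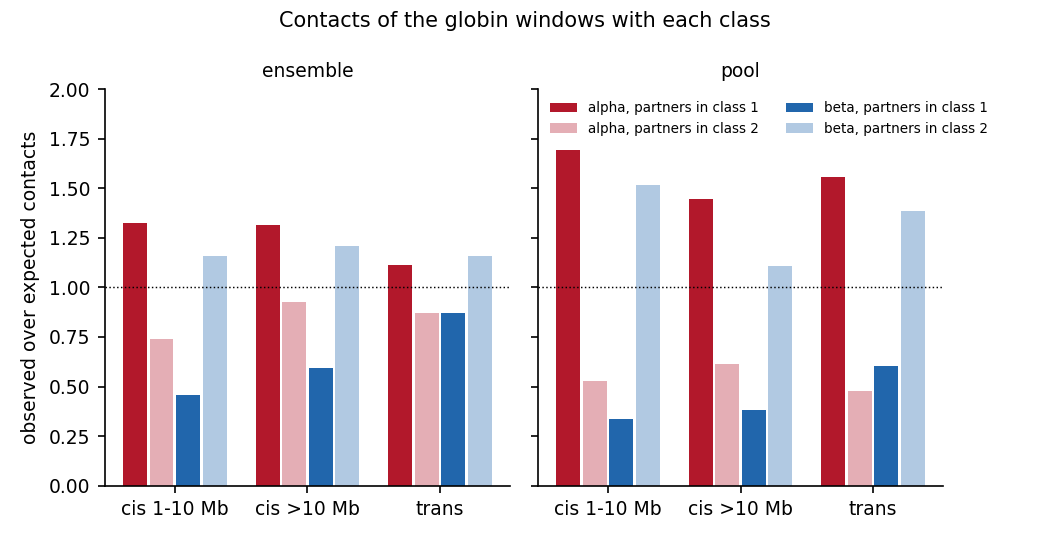
Observed over expected contacts (y axis from 0; dotted line at 1) of the alpha (red) and beta (blue) windows with class 1 bins (full colour) and class 2 bins (pale), in cis at 1 to 10 Mb, in cis beyond 10 Mb and in trans. In both maps alpha lies above 1 with class 1 and beta above 1 with class 2, with the larger contrast in the pool (1.69 against 0.527 for alpha at 1 to 10 Mb).

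The class 1 stretch of Hba-a1 also met the next class 1 stretch on its right more than the class 2 bins between them. In the pool without the 9 cells there were 66 contacts with the stretch from 33750001 to 34750000 against 39.4 expected (ratio 1.67), and 121 with the 1000 kb between against 131 (0.925). The ensemble gave 1.29 and 0.788. The class 2 bins next to the stretch on its left, from 29750001 to 31750000, were near the expected number, at 0.985 in the ensemble and 0.991 in that pool. The class 1 stretch on the far left, from 22500001 to 23500000, was at 1.34 in the ensemble and at 0.902 in that pool, on 11 contacts. These stretches were picked from the profile, so the ratios are a description.

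In single cells the classes of the globin windows' partners could not be told apart. Of distant partners (trans, or over 10 Mb away in cis), 53.5% ± 13.8 (SD, n = 9) lay in class 1 for alpha and 42.4% ± 37.3 for beta. Alpha ran from 30.0% in cell 1 to 75.0% in cell 7 (median 55.6%), and beta from 0% in cells 3 and 4, on 6 and 3 partners, to 100% in cells 1 and 6, on 2 and 1. Alpha was the higher in 6 of 9 cells and the lower in 2, with a mean difference of 11.1 points ± 42.4 (SD, n = 9; exact sign-flip permutation test, two-sided, p = 0.453, adjusted 0.647). Against the rest of chromosome 11, alpha was higher in 7 of 9 cells, by 7.36 points ± 12.6 (exact permutation p = 0.121, adjusted 0.469), and beta against the rest of chromosome 7 was higher in 4 of 9 cells, by 4.72 points ± 37.2 (exact permutation p = 0.703, adjusted 0.879). The last value turned to -2.58 without cell 1 and -2.03 without cell 6. With partners of the 9 cells summed, 32 of 61 for alpha and 9 of 31 for beta were in class 1 (52.5%, Wilson 40.2 to 64.5, and 29.0%, 16.1 to 46.6), and for trans partners alone 15 of 26 and 4 of 10.

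The share of trans contacts asks how far a locus reaches out of its chromosome. In the ensemble, the alpha window had 43.1% trans ends (95% Wilson interval 42.7 to 43.6), below the rest of chromosome 11 (50.2%), and the beta window 49.3% (48.4 to 50.3), near the rest of chromosome 7 (48.5%). Only 2.75% of autosomal windows were lower than alpha, and 0.505% of the 198 windows of chromosome 11, while 39.0% were lower than beta. Steps of 50 kb across the alpha window ran from 36.3% to 46.7%, and all 12 were below the rest of the chromosome. The 500 kb on both sides of the alpha window were at 47.0% together.

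In the pool, where trans contacts are a smaller share throughout, the alpha window was also below its chromosome but did not stand out among autosomal windows. Its alpha window had 20.2% trans ends (18.2 to 22.3) and its beta window 16.2% (13.7 to 19.1), in the opposite order, with 57.0% and 24.7% of autosomal windows lower. Both were below the rest of their chromosomes, at 23.3% and 19.7%. The 500 kb on both sides of the alpha window were at 18.0% together in the pool, lower than the window, unlike in the ensemble. The maps differ as a whole, with 50.7% of all contacts in trans in the ensemble and 20.2% in the pool. In the 9 Bgl II cells alpha had 23.2% ± 16.0 and beta 17.3% ± 15.1 (SD, n = 9). Alpha ran from 0% in cells 9 and 10 to 47.1% in cell 3 (median 25%), and beta from 0% in cells 1, 5 and 10 to 40% in cell 2 (median 20%), so the windows overlapped widely. A count of 0 means little at this depth: 0 of 9 ends in cell 10 allows an alpha share of up to 33.3%, taking 3 counts as the limit, or 29.9% as the upper Wilson bound. Both limits take the 9 ends as independent. The mean difference of 5.84 points ± 10.8 (alpha higher in 6 of 9 cells, lower in 2) did not pass the exact sign-flip permutation test (two-sided, p = 0.141, adjusted 0.469). Nor did the differences from the rest of the chromosome, 3.51 points ± 14.0 for alpha (exact permutation p = 0.453, adjusted 0.647) and -0.224 ± 13.3 for beta (p = 0.961, adjusted 0.961, exact permutation). The beta value changed sign in 5 of the 9 settings that leave out 1 cell. In cell 8, alpha had 5 of 9 trans ends and beta 1 of 5.

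**Figure D4:**
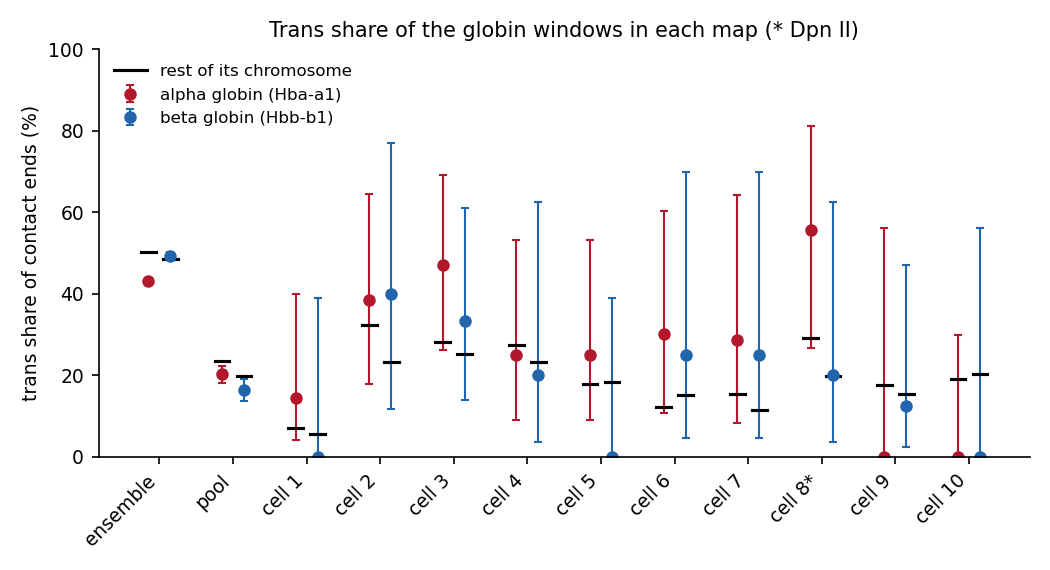
Percent of contact ends in trans (y axis) for the alpha and beta windows in the ensemble, the pool and each cell, with 95% Wilson intervals; black bars give the rest of the same chromosome in the same map. Alpha lies below its chromosome in the ensemble (43.1% against 50.2%), and in the cells the intervals of both windows overlap.

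Within the chromosome, the beta window had a larger share of distant cis ends than the alpha window in the ensemble and the pool. Of its cis ends 77.7% (76.6 to 78.8) had a partner over 2 Mb away in the ensemble, against 61.3% for the rest of chromosome 7, and alpha had 56.0% (55.4 to 56.6), near the 56.4% of chromosome 11. Shorter contacts of beta were fewer in the ensemble: cis ends with a partner 20 to 100 kb away were 2.30% for beta against 6.66% for its chromosome, and 8.75% for alpha against 7.70%. The pool gave the same order for contacts over 2 Mb at lower shares, 50% (46.0 to 54.0) for beta and 35.8% (33.1 to 38.6) for alpha, beside 47.0% and 41.9% for the rest of their chromosomes. The beta interval there covers the value of its chromosome. Of shorter contacts, beta in the pool had 8.75% at 20 to 100 kb against 12.1% for its chromosome. It had 15.2% against 14.5% under 20 kb and 26.1% against 26.4% from 100 kb to 2 Mb. In cells it was 62.8% ± 21.9 for beta and 52.8% ± 18.8 for alpha (SD, n = 9), from 33.3% to 100% and from 22.2% to 75.0%. None of the 3 differences passed: beta minus the rest of chromosome 7 was 13.3 points ± 23.1 (higher in 6 of 9 cells, exact permutation p = 0.113, adjusted 0.469), alpha minus the rest of chromosome 11 was 7.47 ± 17.6 (6 of 9 cells, exact permutation p = 0.227, adjusted 0.566), and alpha minus beta was -9.93 ± 29.5 (exact permutation p = 0.336, adjusted 0.647). Of the 10 tests over cells 0 passed after Benjamini-Hochberg adjustment, and 0 had an unadjusted p under 0.05, where the smallest p that 9 cells allow is 0.00391. A p that misses the threshold does not show that the windows behave alike in cells.

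Insulation measures how few contacts cross a point, as log2 of crossing contacts over the chromosome mean, and its minima mark domain borders. With a window of 500 kb, both genes lay between 2 called minima, 1100 kb apart around Hba-a1 and 450 kb apart around Hbb-b1. The 50 kb bin of Hba-a1 was at 0.0821 in the ensemble, with the nearest minima at bins starting at 31500001 (-0.416) and 32600001 (-0.466). The domain between them, 1100 kb, was longer than 86.9% of those on chromosome 11 (median 675 kb), and 0 minima lay in the alpha window, where minima were 7.25% of the chromosome's bins. The bin of Hbb-b1 was at -0.223, between minima at 110700001 (-0.463) and 111150001 (-0.368), 450 kb apart, longer than 27.6% of domains on chromosome 7 (median 650 kb). These 2 minima were the first and last of the 10 bins of the beta window, and minima were 7.79% of the chromosome's bins. With 12 bins in the alpha window, 0 against 2 minima is a small difference, which was not tested. Over 1.2 Mb on each side, 3 minima were called around Hba-a1 and 8 around Hbb-b1, some of them beside bins with no value.

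The signs at the genes are weak. Hba-a1 turned to -0.0112 with a window of 250 kb and to -0.0610 with 1 Mb, and Hbb-b1 to 0.0679 with 1 Mb and to 0.471 in the pool. With the 250 kb window a shallow minimum (-0.0845) was called in the bin from 32200001, 50 kb from the bin of Hba-a1 and inside the alpha window, and the domain to its left was 700 kb long. Around Hbb-b1, 7 of 49 bins had no value in the ensemble, as too few contacts fell in them, against 1 of 49 around Hba-a1, and minima can be called at the edges of such gaps. In the ensemble with bins of 25 kb the minimum left of Hbb-b1 moved to 110475001, while both around Hba-a1 stayed within 25 kb. In the pool, minima were called in 325 bins of chromosome 11 and 384 of chromosome 7, against 169 and 175 in the ensemble, so its domains were not read. The left border of the Hba-a1 domain was also low in the pool, at -0.555, and the right border at -0.128.

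**Figure D5:**
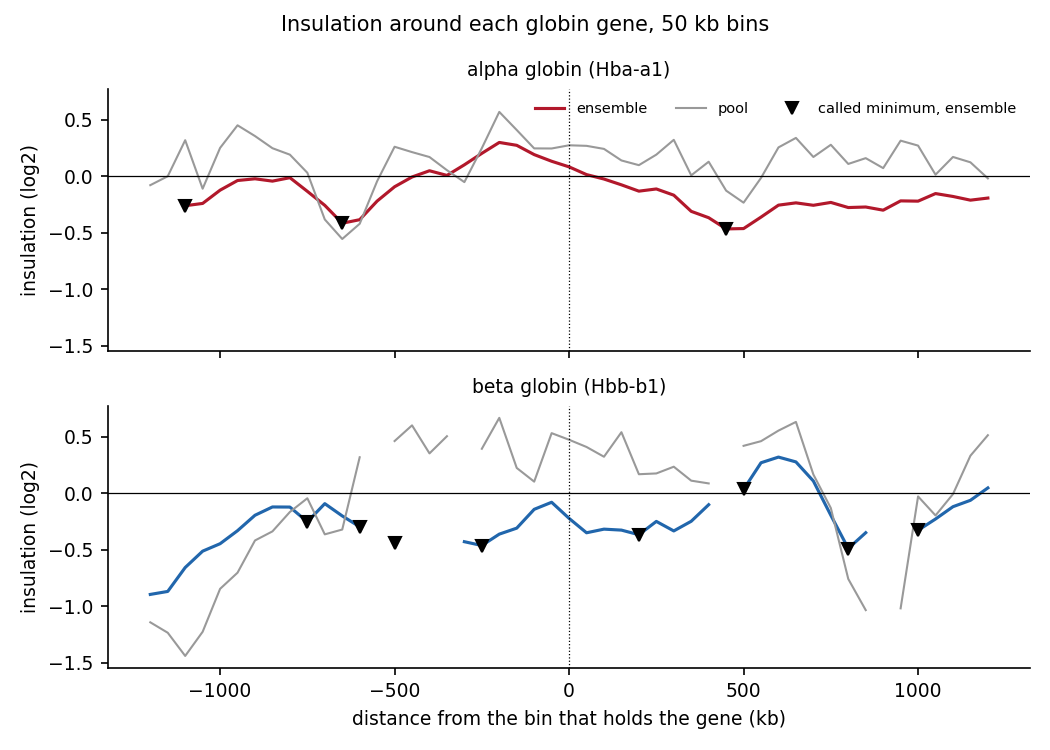
Insulation (y axis, log2 of crossing contacts over the chromosome mean) against distance in kb from the bin of each gene, in the ensemble (colour) and the pool (grey), with called minima of the ensemble as triangles and gaps where bins had no value. Hba-a1 lies in a broad hump between minima 650 kb to the left and 450 kb to the right, and Hbb-b1 between minima 250 kb to the left and 200 kb to the right.

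Local contacts were read from the 200 kb around each gene to bins of 50 kb between 200 kb and 2 Mb away, where at least 10 contacts were expected. The stretch around Hba-a1 had 61 such bins and that around Hbb-b1 10, since the beta window is sparse. For Hba-a1 the highest bins started at 33950001 (32 contacts on 17.7 expected, ratio 1.80), 31800001 (79 on 47.7, 1.66) and 34000001 (24 on 15.3, 1.57). The first and last of these lie in the class 1 stretch on the right, and 31800001 lies at the left end of the gene's own stretch. The lowest started at 32800001 (7 on 17.0, 0.411), 32900001 (26 on 46.6, 0.559) and 33300001 (11 on 18.6, 0.591), all in the class 2 gap. For Hbb-b1 the lowest bin, 111200001 (4 on 14.7, 0.272), was followed by 111150001 (0.707) and 110700001 (0.728), at the ends of the window. The highest were 109650001 (19 on 10.1, 1.88), a class 1 bin just left of the class border, 111350001 (1.38) and 111550001 (1.05). The bins were chosen for their values. In the pool each held fewer than 4 expected contacts. The ratio of 109650001 there rests on 3 contacts and that of 111200001 on 7 against 3.73, the opposite side of 1 from the ensemble.

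Single partners outside the chromosome were next. With at least 20 contacts expected, the alpha window had 15 eligible trans bins of 1 Mb in the ensemble. The highest were on chromosome 17 from 28000001 to 29000000 (37 on 21.8, ratio 1.69), chromosome 19 from 45000001 to 46000000 (33 on 20.9, 1.58) and chromosome 4 from 133000001 to 134000000 (32 on 22.0, 1.45), and all 3 were class 1 bins. The lowest of the 15 was at 0.465. The beta window had 0 eligible bins, with 12.9 contacts expected at most. Lowering the minimum to 5, after this was seen, gave 67 bins, led by chromosome 10 from 127000001 to 128000000 with 8 contacts on 5.11. The 3 highest of these for beta were class 1 bins too, while beta met class 1 as a whole less than expected. The median ratio of the 67 bins was 0.585. Bins were eligible by expected contacts, which favours bins rich in trans contacts, and the classes of all eligible bins were not counted. The class of the leading bins is therefore no result, for alpha or for beta. By chromosome, with expected numbers from the trans ends of all chromosomes, alpha was highest with chromosome 19 (861 on 645, 1.34) and lowest with X (327 on 401, 0.816), and beta was highest with chromosome 3 (337 on 293, 1.15) and lowest with chromosome 19 (119 on 178, 0.668). With expected numbers from the trans partners of the window's own chromosome, alpha was at 1.16 with chromosome 19, beside 1.14 with chromosome 16, and lowest with chromosome 1 (0.925, X at 0.937), while beta was still highest with chromosome 3 (1.12) and lowest with chromosome 19 (0.714). In the pool the ratios of alpha with chromosome 19 were 1.35 and, by its own chromosome, 0.994, on 15 contacts, and those of beta 0.469 and 0.521, on 2. The highest for alpha in the pool was chromosome 6 (1.65 and 1.70, on 28 contacts), and for beta chromosome 1 (1.91 and 1.84, on 15), so the maps differ in the leading chromosome.

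Distant partners, in trans or over 10 Mb away in cis, were few, with 68 for alpha and 34 for beta over the 10 cells. No expected recurrence was computed, so recurrence between cells is given as a count alone. Among distant partners the alpha window met 7 bins of 1 Mb in more than 1 of the 10 cells, and the beta window met 0. All 7 were on chromosome 11, which held 37 of the 68 alpha partners on far fewer bins than the other chromosomes together. The only such bin met in 3 cells was chromosome 11 from 6000001 to 7000000, class 1, with 1 contact each in cells 4, 6 and 9. The bin from 11000001 to 12000000, class 2, had 4 contacts in cells 1 and 2. In cell 3, the cell with most ends in both windows, alpha had 8 trans partners on 5 chromosomes and beta 4 on 4 chromosomes, all 4 of beta in class 2.

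Contacts between the alpha and beta globin windows were counted last. In these T cells the ensemble had 1 contact between the windows, against 2.08 expected from their trans ends (ratio 0.482, exact Poisson interval 0.0122 to 2.68). The pool and all 10 cells had 0, with 0.0390 expected in the pool, so a contact was not detectable at their depth. With 500 kb on each side of the gene points, the ensemble had 4 contacts against 7.48 expected.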

How the data were processed

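Per the file headers, each line of the deposited files is a contact, giving the chromosome and genomic position in bp of its 2 ends, and no measured level. Positions are on mm9, per the submitters' processing notes. Which aligner and read filters were applied is not given in the sources used here. Each contact counts once, so ligations repeated in many cells of the ensemble count once. In cell 8, 3 contacts were left out.

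Matrices were balanced over 50 iterations, without bins whose sum was under 0.2 of the median. Expected cis contacts came from distance and bin totals, expected trans contacts from the trans ends of both sides. Insulation used 50 kb bins, a 500 kb window and a prominence of 0.1 for minima. Density was contact ends per fragment end (cell 8: per Mb), over the same for the chromosome. Work was done in Python 3.11.15 with numpy 2.4.6 and scipy 1.17.1, and checked on simulated data. Tests were exact two-sided sign-flip permutations over the 9 Bgl II cells, adjusted by Benjamini-Hochberg over 10 tests. Alternatives changed the window, bins, balancing, map and cells.

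Members, lists and rules were chosen with earlier results of these data known. Regions named were the 3 most like bins, the 3 highest trans bins, the 3 highest and 3 lowest local bins, and bins recurring in cells. The width of the local viewpoint, 100 kb on each side, was set after the files were opened.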

Additional observations from a re-analysis of the deposited data

How the results depend on the processing

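Each of 17 results was recomputed under other settings, 170 values in all, of which 24 changed sign. A further 24, all from results without a test, moved beyond their interval or, with 1 map and no spread, differed at all. For tests over cells, a value that kept its sign and its side of the adjusted threshold counted as unchanged, whatever its size. The class 1 partner share, alpha minus beta, counted so although it went from 11.1 to 25.2 points with classes at 250 kb. None of the 10 tests over cells passed in any setting (lowest adjusted p 0.130, exact permutation), so signs there carry little, and the causes of the changes were not tested.

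With each Bgl II cell left out in turn, the means ran from 3.44 to 8.13 points (trans share, alpha minus beta), 1.58 to 6.35 (alpha minus the rest of chromosome 11) and -2.34 to 2.28 (beta minus the rest of chromosome 7). Density, alpha minus beta, ran from -0.131 to 0.123. The distant cis share ran from -14.5 to -4.93 (alpha minus beta), 5.17 to 11.6 (alpha) and 9.58 to 17.5 (beta), and the class 1 partner share from 5.00 to 21.2 (alpha minus beta), 5.29 to 10.4 (alpha) and -2.58 to 10.9 (beta).

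With 100 kb on each side of the gene points, trans share turned to -5.21 (alpha minus beta), -3.26 (alpha) and 4.14 (beta), and distant cis share to 14.2 (alpha minus beta) and -2.29 (beta). With 500 kb, density turned to 0.0913, distant cis share of alpha to -3.49 and class 1 partner share of beta to -2.81. Distant cis beyond 10 Mb gave 0.344 (alpha minus beta), classes at 250 kb gave -7.16 for the class 1 partner share of beta, and summed counts gave -8.40 for that share and 1.39 for the trans share of beta.

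The ensemble's trans share of alpha was 42.4% with 100 kb, 44.8% with 500 kb, 45.1% without cis contacts under 20 kb and 20.2% in the pool, an alternative chosen after seeing the data. That of beta was 50.4% with 500 kb, 50.6% without cis contacts under 20 kb and 16.2% in the pool. The class of both genes held in all 5 alternatives. The alpha value was 0.614 at 500 kb, 0.615 at 250 kb, 0.472 unbalanced, 0.477 in the pool and 0.491 in the pool without the 9 cells. The beta value was -1.02, -0.795, -1.16, -0.759 and -0.731, but unbalanced, 0 bins of chromosome 7 were class 1, so that sign separates nothing. Insulation of Hba-a1 was -0.0112 with 250 kb, -0.0610 with 1 Mb, 0.0656 with 25 kb bins, 0.711 unbalanced and 0.273 in the pool. That of Hbb-b1 was -0.241, 0.0679, -0.0125, -2.09 and 0.471. The alpha to beta ratio was 0 with 100 kb.

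The tests were paired within a cell: each set the windows against each other, or a window against its chromosome. No groups of samples were compared. Depth limits the cells, at 97 and 53 ends over 9 cells.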
